A study of Mus musculus with 6 samples.

Results

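The genes described here are 10 genes of calcium cycling and the sarcoplasmic reticulum in the mouse heart: Cacna1c, Cacnb2, Ryr2, Casq2, Hrc, Jph2, Atp2a2, Pln, Sln and Slc8a1. They were taken by name, and each was represented by the probe set that carries only its symbol, by rule the one with the highest mean signal. Each of the 10, among 30098 genes with a probe set of their own on the array, had a single such probe set, and all 10 passed the filter on low signals. The samples were 3 of peri-infarct left ventricle from male C57BL/6 mice 4 weeks after ligation of the left descending coronary artery (MI), and 3 of the corresponding region from sham-operated male C57BL/6 mice, in which the artery was not ligated (sham). The labels name no further allele or treatment for either group, and they give no age. Peri-infarct tissue is a border strip that mixes surviving muscle with scar. Each sample was hybridized to 1 Affymetrix mouse transcriptome array 1.0, which has 1 colour. Whether the 3 samples of a group are 3 hearts is not stated, and p-values here cover only the spread among these samples, which may be technical.

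In a heart muscle cell each beat begins with calcium entering through L-type channels of the surface membrane and its T-tubules. This small entry opens ryanodine receptors on the facing sarcoplasmic reticulum, an internal calcium store, and the released calcium starts contraction. Relaxation follows as a calcium pump returns calcium to the store and an exchanger carries the rest out of the cell. Junctophilins hold the surface membrane and the store together, and small membrane proteins such as phospholamban and sarcolipin restrain the pump. The failing heart is known for weakened and slowed calcium cycling.

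Values are log2 signals as deposited, and a difference is the mean of the 3 MI arrays minus the mean of the 3 sham arrays on that scale. The MI arrays had medians of 4.44 to 4.52 over all their probe sets, and the sham arrays 4.43 to 4.44. The highest signal of an array was 19.79 to 19.93 in MI and 19.86 to 19.91 in sham. A scanner that stores 16 bits cannot give a log2 signal over 16, yet 902 to 1065 probe sets per MI array and 867 to 879 per sham array exceeded it. No step described for these files accounts for such values, so differences hold on the deposited scale only. The highest background control probe set of an array read 5.12 to 6.08 in MI and 5.65 to 5.93 in sham. Over all 32979 probe sets tested, limma called 1200 lower and 980 higher in MI at an adjusted p under 0.05. This split was 1570 lower and 835 higher after median centring of the arrays, 1512 lower and 750 higher after quantile normalization, and 661 lower and 3168 higher after centring on heart muscle cell markers. Of 7 fibroblast markers tested, 6 were called higher in MI, with a median difference from the sham mean of 4.24 in MI 1, 4.36 in MI 2 and 2.71 in MI 3. Of 15 markers of heart muscle cells, Actc1, Tnnt2 and Myh6 lay at most 0.141 below the top of the scale in all 6 arrays. The others lay farther below it, from Actn2 (1.21 to 1.35) to Mb (9.065). Of the atrial markers, Myl7 was well above the background controls in sham 2 and sham 3 only, which bears on Sln below.

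Of the 10 genes, 3 fell in MI by limma at an adjusted p under 0.05: Cacnb2, Cacna1c and Jph2. None was called higher. The background is 3.64% of all probe sets called lower and 2.97% called higher. All 10 differences were negative, with a median of -0.68, where the median over all probe sets tested was 0.01. In 7 of the 10 genes the groups were separate with MI below sham, against 16.8% of all probe sets tested. Atp2a2 and Pln, measured at the top of the scale, are among these 7, and the groups of Pln overlapped in distance from the top. Among the 12043 protein-coding genes tested, 761 were called lower, 519 were called higher, and 3227 had separate groups with MI below sham. The median difference of those 12043 was -0.05. The number of calls among the 10 genes changed when 1 array was left out: 5 were called lower without MI 3, and 0 without any other single array. Over all 32979 probe sets tested, 2430 were called lower without MI 3, and 0 to 172 without any other single array. In whole tissue, fewer heart muscle cells and less of an RNA per cell cannot be told apart.

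**Figure D1:**
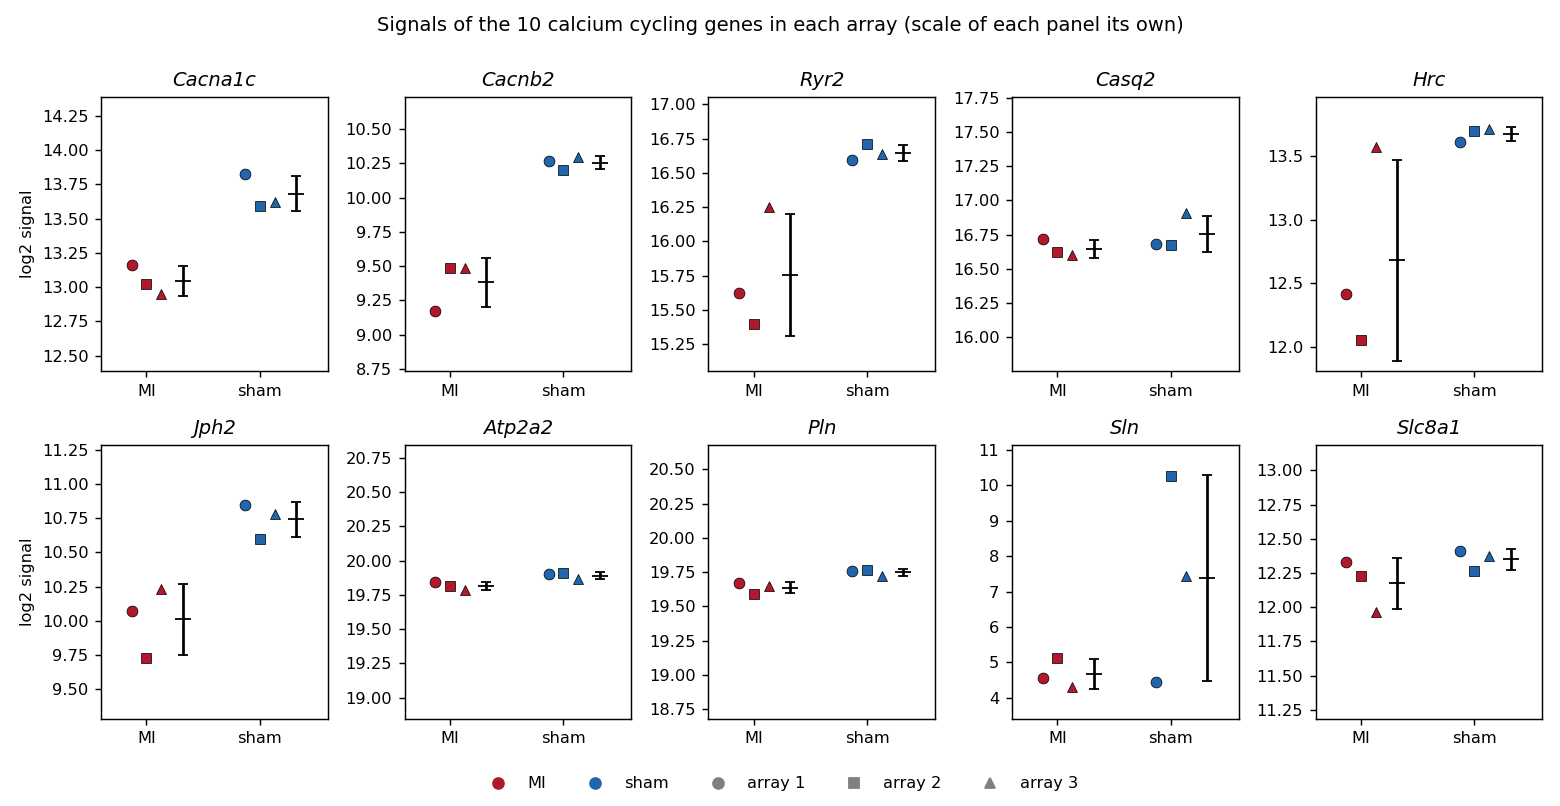
Log2 signal of each of the 10 genes in the 3 MI arrays (red, left) and the 3 sham arrays (blue, right), with marker shapes for array number and a bar for the mean ± SD. Cacna1c, Cacnb2, Ryr2 and Jph2 show separate groups, Hrc is near the sham level in MI 3, Atp2a2 and Pln are flat near 19.8, and Sln is high in sham 2 and sham 3.

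Both members of the entry channel complex, a pore-forming and a beta subunit, fell in MI. Cacnb2 (probe set TC0200000250.mm.1) encodes the main cardiac beta subunit, which carries the channel to the membrane. Its signal was 9.17, 9.48 and 9.49 in MI 1, MI 2 and MI 3, against 10.27, 10.20 and 10.30 in sham 1, sham 2 and sham 3. The groups did not overlap, and MI 1 was the lowest array. Cacnb2 differed by -0.87, with a standard error of 0.12 and an adjusted p = 0.0202 from limma. Cacna1c (TC0600003005.mm.1) encodes the pore-forming subunit Cav1.2. Its signal was 13.17, 13.03 and 12.95 in the MI arrays, against 13.83, 13.60 and 13.62 in the sham arrays. The 3 MI values lay close together and all were below the lowest sham value. Cacna1c differed by -0.64 (standard error 0.11, adjusted p = 0.0312 from limma). Cacna2d1, the alpha2-delta subunit, named after its values were seen, differed by -0.56 and was not called (adjusted p = 0.0826 from limma). Leaving out 1 array at a time kept the difference of Cacnb2 between -0.93 and -0.77 and that of Cacna1c between -0.69 and -0.56, while the adjusted p from limma reached 0.0966 and 0.108.

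The junction protein showed a decrease of like size. Jph2 (TC0200005089.mm.1), junctophilin 2, ties the T-tubule to the sarcoplasmic reticulum and is the main junctophilin of the heart. Its signal was 10.07, 9.73 and 10.23 in MI 1, MI 2 and MI 3, against 10.84, 10.60 and 10.78 in the sham arrays. All MI values were below all sham values, with MI 2 the lowest. Jph2 differed by -0.73, with a standard error of 0.15 and an adjusted p = 0.0480 from limma. This call lies at the threshold: it was lost without a filter on low signals (adjusted p = 0.0667) and with limma's trend and robust options (adjusted p = 0.0522).

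None of the 3 genes of the release channel and the lumen was called by limma; the groups were separate for Ryr2 and Hrc and overlapped for Casq2. Ryr2 (TC1300001438.mm.1) encodes the ryanodine receptor, the calcium release channel. Its signal was 15.62, 15.40 and 16.25 in MI 1, MI 2 and MI 3, against 16.59, 16.71 and 16.64 in the sham arrays. The groups did not overlap, and MI 3 lay much nearer to the sham arrays than MI 1 and MI 2 did. The difference of -0.89 (standard error 0.22, 95% interval -1.43 to -0.35) did not pass the threshold (adjusted p = 0.0683 from limma). Without MI 3 it was -1.14 and was called (adjusted p = 0.00532 from limma). It was also called after median centring (-0.93, adjusted p = 0.0474) and after quantile normalization (-1.20, adjusted p = 0.0135). Hrc (TC0700000840.mm.1) encodes the histidine-rich calcium-binding protein, which lies in the lumen of the store and binds both the pump and the release complex. Its signal was 12.42, 12.06 and 13.57 in MI 1, MI 2 and MI 3, against 13.61, 13.70 and 13.72 in the sham arrays. Relative to the sham mean MI 1 differed by -1.26, MI 2 by -1.62 and MI 3 by -0.10, so that MI 3 lay just under the lowest sham array. The mean difference was -0.995 (standard error 0.38, adjusted p = 0.174 from limma), and without MI 3 it was -1.44 and was called (adjusted p = 0.00504 from limma). Casq2 (TC0300001023.mm.1), cardiac calsequestrin, is the main calcium buffer inside the store. Its signal was 16.72, 16.62 and 16.60 in the MI arrays, against 16.68, 16.67 and 16.91 in the sham arrays. The groups overlapped, and the 95% interval of the difference was -0.36 to 0.15, beside -1.43 to -0.35 for Ryr2. The difference of Casq2 itself, -0.11 (adjusted p = 0.566 from limma), was -0.42 after quantile normalization (adjusted p = 0.254), 0.11 after centring on heart muscle cell markers (adjusted p = 0.516) and -0.03 without sham 3 (adjusted p = 0.910).

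Within each array the signal of Casq2 was set against that of Ryr2, which tests whether the buffer and the channel changed unequally. Casq2 minus Ryr2 was 1.10, 1.23 and 0.35 in MI 1, MI 2 and MI 3, against 0.09, -0.04 and 0.27 in the sham arrays. The groups did not overlap, and MI 3 lay nearest to sham. The difference was 0.78, with p = 0.1 by an exact permutation test, two-sided, which is the smallest p that 3 arrays against 3 can give, and p = 0.4 after adjustment over the 4 pairs of genes compared. The other 3 pairs set Pln, Sln and Slc8a1 against Atp2a2, which lies at the top of the scale, and they give no measure of a ratio.

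The promoter windows of these partners are shown because Ryr2 had separate groups and Casq2 overlapping ones, although their products work in the same complex; the within-array test above did not pass after adjustment. RefSeq's table for GRCm38.p6 held a window for 8 of the 10 genes, and none for Atp2a2 and Sln. Each sequence is the 250 bases before the annotated start, 5′ to 3′ on the strand of the gene. That of Ryr2 is chr13:12106946-12107195 (minus strand) and that of Casq2 is chr3:102086165-102086414 (plus strand). Capitals mark a match to the motif of the muscle factor MEF2.
Ryr2: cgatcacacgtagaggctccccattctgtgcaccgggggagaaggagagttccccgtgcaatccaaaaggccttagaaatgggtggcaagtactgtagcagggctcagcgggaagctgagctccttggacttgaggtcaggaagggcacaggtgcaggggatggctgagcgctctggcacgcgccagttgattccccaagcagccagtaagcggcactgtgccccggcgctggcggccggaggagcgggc
Casq2: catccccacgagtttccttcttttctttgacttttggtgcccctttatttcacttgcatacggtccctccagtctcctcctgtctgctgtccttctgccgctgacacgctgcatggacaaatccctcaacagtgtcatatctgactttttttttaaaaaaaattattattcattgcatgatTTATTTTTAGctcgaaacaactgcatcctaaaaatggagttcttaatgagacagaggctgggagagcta
The Casq2 window held 1 match to the MEF2 motif, 69 bases before the start, and the Ryr2 window held none. Of 32841 mouse promoter windows of this length, 2.92% held the MEF2 motif. Neither window held the TATA box (TATAAA, in 12.4% of all windows), the GATA motif (GATAA, in 22.6%), the M-CAT motif (CATTCC, in 12.6%) or the CArG box (in 1.47%). Each held 2 E-boxes (CANNTG), a motif found in 66.2% of all windows. Both strands were searched. A match is a description of the letters only.

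**Figure D2:**
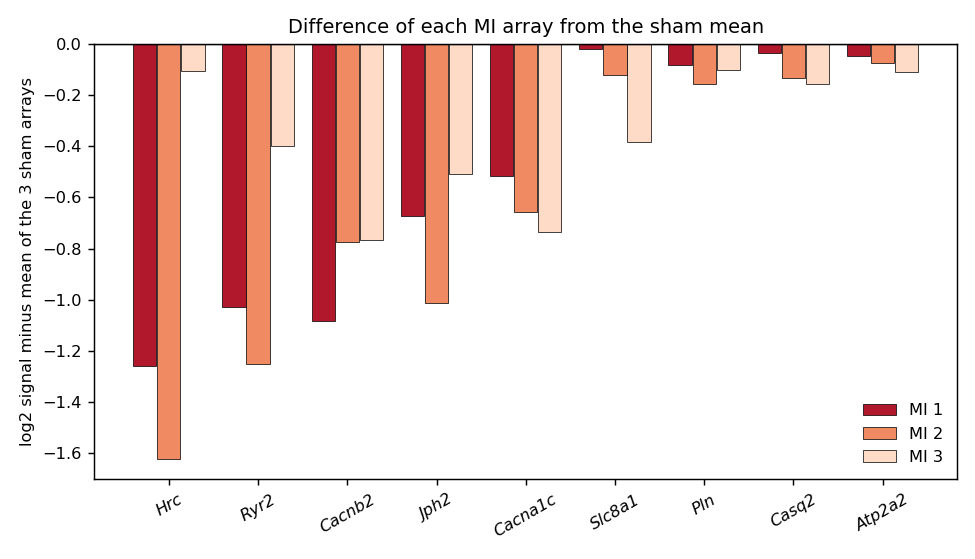
Difference of each MI array from the mean of the 3 sham arrays, in log2 signal, for 9 of the genes (Sln is left out because its sham arrays differ widely). For Hrc and Ryr2 the bar of MI 3 is the shortest (-0.10 and -0.40), while it is the longest for Cacna1c (-0.73), Slc8a1 (-0.38), Casq2 (-0.16) and Atp2a2 (-0.11). The Atp2a2 value of MI 3 lies 0.006 below the top of that array.

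The MI arrays did not rank alike across the genes. MI 3, with the lowest fibroblast marker median, was nearest to sham for Ryr2, Hrc and Jph2. In signal it was farthest from sham for Cacna1c, Slc8a1, Casq2 and Atp2a2. Its Atp2a2 value lay 0.006 below the top of the array, a top (19.79) that was the lowest of all the arrays. In distance from the top, MI 3 was the MI array nearest to sham for Atp2a2. For Cacnb2, MI 2 and MI 3 differed from the sham mean by nearly the same amount (-0.77 each), and MI 1 differed by -1.08. The median difference over all 10 genes was -0.59 in MI 1, -0.71 in MI 2 and -0.39 in MI 3. The part of fibroblast content in these differences was not tested.

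The pump and its main inhibitor were measured at the top of the scale. Atp2a2 (TC0500003212.mm.1) encodes SERCA2, the calcium pump of the cardiac sarcoplasmic reticulum. Its signal was 19.84, 19.81 and 19.78 in the MI arrays, against 19.90, 19.91 and 19.86 in the sham arrays. In each sham array this was the highest value of that array to within 0.0004. It lay 0.088 below the top in MI 1, 0.117 in MI 2 and 0.006 in MI 3. The difference was -0.08 (95% interval -0.27 to 0.12, adjusted p = 0.592 from limma). Pln (TC1000000479.mm.1), phospholamban, slows the pump until it is phosphorylated. Its signal was 19.67, 19.59 and 19.65 in the MI arrays, against 19.76, 19.77 and 19.72 in the sham arrays. Pln lay 0.141 below the top of the array in sham 1, sham 2, sham 3 and MI 3 alike, and farther below it in MI 1 (0.263) and MI 2 (0.338). Its groups, which do not overlap in signal, therefore overlapped in distance from the top. The difference was -0.11 (95% interval -0.31 to 0.08, adjusted p = 0.434 from limma).

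Of the 192 probe sets whose signal averaged 19 or more, 77 kept the same distance from the top of the array in all 6 arrays, to within 0.01. Among those 192 the median size of the difference was 0.01, and 1 probe set had a difference of -0.5 or less. Among the 1191 with a mean of 13 to 16 the median size was 0.37, and 159 had a difference of -0.5 or less. The largest difference among the 192 was 1.76, that of Nppa, whose sham arrays lay well below the top. Whether the scale compresses a change in their RNA was not tested. Apart from Atp2a2 and Pln, the distance from the top varied by at least 0.1 among the sham arrays in each of the 10 genes. A flat reading was also seen below the top: that of Mb, myoglobin, kept the same distance below it in all 6 arrays, to within 0.0001.

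**Figure D3:**
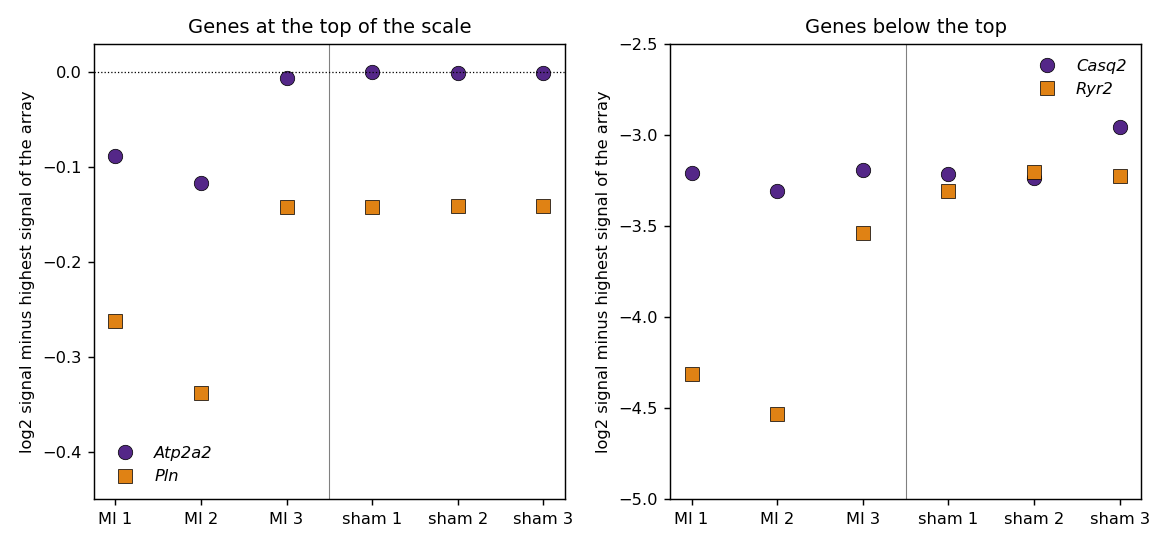
Log2 signal minus the highest signal of the same array, for Atp2a2 and Pln (left) and for Casq2 and Ryr2 (right), in the 3 MI arrays left of the line and the 3 sham arrays right of it. Atp2a2 is at the top and Pln 0.141 below it in the 3 sham arrays, and both are farther down in MI 1 and MI 2.

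Pln minus Atp2a2 within an array was -0.17, -0.22 and -0.14 in the MI arrays and -0.14 in each sham array. The difference was -0.04 (p = 0.4, exact permutation test, two-sided), and with both genes at the top of the scale it is no measure of their ratio in the tissue. The exchanger was not called either. Slc8a1 (TC1700002597.mm.1) encodes the cardiac sodium-calcium exchanger, which carries calcium out of the cell. Its signal was 12.33, 12.23 and 11.97 in the MI arrays, against 12.41, 12.26 and 12.38 in the sham arrays. The groups overlapped, and MI 3 was the lowest array. The difference was -0.18 (95% interval -0.47 to 0.12, adjusted p = 0.425 from limma). Slc8a1 lies far from the top of the scale, 7.49 to 7.82 below it, and its sham arrays ranged over 0.15.

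Sarcolipin stood apart from the rest because the sham arrays differed widely. Sln (TC0900000648.mm.1) encodes a small inhibitor of the calcium pump that in the mouse heart is found mainly in the atria. Its signal was 4.57, 5.13 and 4.31 in MI 1, MI 2 and MI 3, against 4.46, 10.25 and 7.45 in sham 1, sham 2 and sham 3. The MI arrays and sham 1 all read below the highest background control of the array, while sham 2 and sham 3 read far above it. The mean difference, -2.72 (standard error 1.36, adjusted p = 0.279 from limma), had a 95% interval of -6.04 to 0.60. With sham 2 and sham 3 both left out it was 0.21, an alternative chosen after the data were seen, and with array weights it was -3.64 and called (adjusted p = 0.0413 from limma).

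Of the 5 atrial markers, Myl7 was clearly high in the same sham arrays. Myl7, the atrial myosin regulatory light chain, had a signal of 4.70, 4.51 and 4.78 in the MI arrays, against 4.95, 11.19 and 8.43 in the sham arrays. Of 17466 genes searched, Myl7 had the profile nearest to that of Sln over the 6 arrays, at a root mean square distance of 0.54 after each gene was centred on its mean. The next were Acot1 and Acot2, acyl-CoA thioesterases that release fatty acids, at 1.46 and 1.51. Mybphl, a myosin-binding protein of the atria, read 3.61, 3.72 and 3.72 in the MI arrays and 3.40, 5.61 and 4.42 in the sham arrays, all at or below the highest background control of the array. Myl4, the atrial essential light chain, read 5.19 to 5.31 in MI and 5.22, 5.87 and 5.90 in the sham arrays. Bmp10, an atrial growth factor, was within the background range in all 6 arrays. Nppa, the natriuretic peptide that stressed ventricles also make, was the exception, with 19.79 to 19.93 in MI and 17.68 to 18.99 in sham. Its MI values are the tops of their arrays. The difference of Nppa was 1.76 on the log2 scale (adjusted p = 0.0442 from limma), and whether the top of the scale limits it was not tested. The mean level of the 5 atrial markers was 7.35 to 7.44 in the MI arrays and 6.95 to 9.04 in the sham arrays. Among the other 9 genes the sham arrays ranged over no more than 0.25. The part of atrial tissue in the Sln values was not tested.

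**Figure D4:**
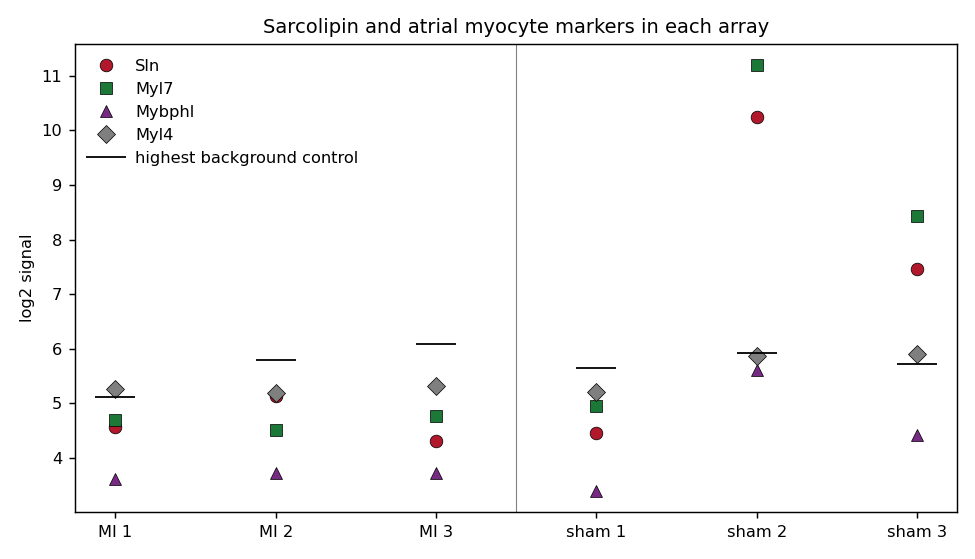
Log2 signal of Sln and of the atrial markers Myl7, Mybphl and Myl4 in each MI array (left) and each sham array (right), with the highest background control of each array as a dash. Sln and Myl7 are at 10.25 and 11.19 in sham 2 and at 7.45 and 8.43 in sham 3, and at or near the background range in the other 4 arrays.

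Of 15 markers of heart muscle cells, 0 were called in either direction by limma, beside a background of 3.64% lower and 2.97% higher. In 8 the groups were separate with MI below sham, beside 16.8% of all probe sets tested. The same held for 3227 of the 12043 protein-coding genes tested. The median difference of the 15 markers was -0.10. The difference was negative in 13 of the 15. Tnni3, cardiac troponin I, had a difference of -0.46 (adjusted p = 0.0693 from limma), and Ckm, muscle creatine kinase, one of -0.99 (adjusted p = 0.0674 from limma). Also below the top, Ckmt2 (-0.54), Myl3 (-0.41), Myl2 (-0.33) and Cox6a2 (-0.29) had lower means in MI. Ttn differed by -0.14, and Actn2 and Tpm1 by -0.10 each. Mybpc3 (0.19) and Tnnc1 (0.07) had the only positive differences, and Mb differed by -0.01. Actc1, at the top of the scale in all arrays, had a difference of -0.01. The mean level of the 15 markers was 16.26 to 16.39 in the MI arrays and 16.52 to 16.56 in the sham arrays. When each array was centred on this mean, the median over all probe sets tested moved to 0.23, and Cacnb2 was the 1 gene of the 10 still called (-0.66, adjusted p = 0.0319 from limma). On that scale Cacna1c differed by -0.42 (adjusted p = 0.0771), Jph2 by -0.52 (adjusted p = 0.0607), Ryr2 by -0.68 (adjusted p = 0.0677) and Hrc by -0.78 (adjusted p = 0.155, all from limma). The other genes below the top, Casq2 and Slc8a1, then differed by 0.11 and 0.04. Of the markers, Actc1, Tnnt2 and Myh6 were themselves at or near the top of the scale. Mb kept the same distance below the top in every array, to within 0.0001. Both points limit this centring.

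Other genes of calcium handling were counted from 6 lists of 84 genes, of which 66 had a probe set of their own and 57 passed the filter. limma called 4 of the 57 lower and 2 higher, beside a background of 3.64% and 2.97%. Their median difference was -0.12. In 18 of them the groups were separate with MI below sham, beside 16.8% of all probe sets tested, and in 7 with MI above, beside 15.0%. Of the 12043 protein-coding genes tested, 3227 were separate with MI below sham and 1954 with MI above. Of the same 12043, 761 were called lower and 519 higher, with a median difference of -0.05. Among the 57 genes, calls lower in MI came from the membrane junction, the kinase that acts on phospholamban, and a mitochondrial exchanger. Both calls higher in MI came from calcium entry.

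Among 7 tested genes of junctions and T-tubules, 2 fell and none was called higher. Jph1, the junctophilin known best from skeletal muscle, had a signal of 7.25, 7.35 and 7.84 in the MI arrays, against 8.58, 8.64 and 8.77 in the sham arrays. Like Jph2 it had MI 3 nearest to sham and no overlap of the groups. Jph1 differed by -1.18, with a standard error of 0.17 and an adjusted p = 0.0226 from limma. Speg, a kinase that phosphorylates junctophilin 2 and the calcium pump in heart muscle, had a signal of 7.47, 7.40 and 7.69 in the MI arrays, against 8.17, 8.16 and 8.19 in the sham arrays. The sham arrays lay within 0.03 of each other. Speg differed by -0.65 (standard error 0.10, adjusted p = 0.0262 from limma).

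Among 14 tested genes of calcium entry, 2 rose and none was called lower. Gem, a small GTP-binding protein that binds the channel's beta subunit and lowers the calcium current, had a signal of 6.98, 6.97 and 6.72 in the MI arrays, against 5.57, 5.61 and 5.54 in the sham arrays. All 3 sham values lay within the range of the background controls. Gem differed by 1.31, with a standard error of 0.11 and an adjusted p = 0.00969 from limma. Stim2, a sensor of calcium in the store, had a signal of 8.96, 9.07 and 8.90 in the MI arrays, against 8.49, 8.60 and 8.44 in the sham arrays. Stim2 differed by 0.47 (standard error 0.10, adjusted p = 0.0446 from limma).

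Among 16 tested genes of uptake and its regulation, 1 fell. Prkaca, the catalytic subunit of protein kinase A, which phosphorylates phospholamban, had a signal of 12.35, 12.24 and 12.16 in the MI arrays, against 12.90, 12.68 and 12.92 in the sham arrays. The groups did not overlap, and Prkaca differed by -0.58, with a standard error of 0.11 and an adjusted p = 0.0362 from limma. Of 6 tested genes of mitochondrial calcium, Letm1, an ion exchanger of the inner membrane, fell, with 8.41, 8.51 and 8.29 in the MI arrays against 8.88, 9.01 and 8.93 in the sham arrays (difference -0.54, adjusted p = 0.0343 from limma). Of 11 tested genes of the release channel and the lumen of the store, 0 were called by limma. The members of that list with the highest signals were Srl, sarcalumenin, a luminal calcium-binding protein (difference -0.46, adjusted p = 0.0530), and Trdn, triadin, which anchors calsequestrin to the ryanodine receptor (-0.34, adjusted p = 0.399). Of 3 tested genes of calcium extrusion and sodium balance, 0 were called. Those with the highest signals were Fxyd1, phospholemman, a regulator of the sodium pump (-0.44, adjusted p = 0.422), and Atp1b1, a sodium pump subunit (-0.16, adjusted p = 0.430, all from limma).

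Atp2a1, the pump of fast skeletal muscle, is named after its values were seen. It read 5.05, 6.24 and 5.01 in the MI arrays, against 4.55, 4.38 and 4.47 in the sham arrays (difference 0.96, adjusted p = 0.147 from limma). MI 2 was the highest and the only array above its background controls. Skeletal muscle markers were highest in the same array: their mean level was 5.39 to 6.06 in the MI arrays, with the highest value in MI 2, and 5.01 to 5.10 in the sham arrays. Of 8 such markers tested, 2 were called higher, Myh2 and Tnnt3, and 5 had separate groups with MI above sham. Beside these stand 15.0% of all probe sets tested, and 1954 of the 12043 protein-coding genes tested, with MI above sham. Tnni2, Mylpf and Pvalb were within the background range in every array. Myh2 and Tnnt3 were above the highest background control in MI 1 and MI 2 only. The part of skeletal muscle in the Atp2a1 values was not tested.

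**Figure D5:**
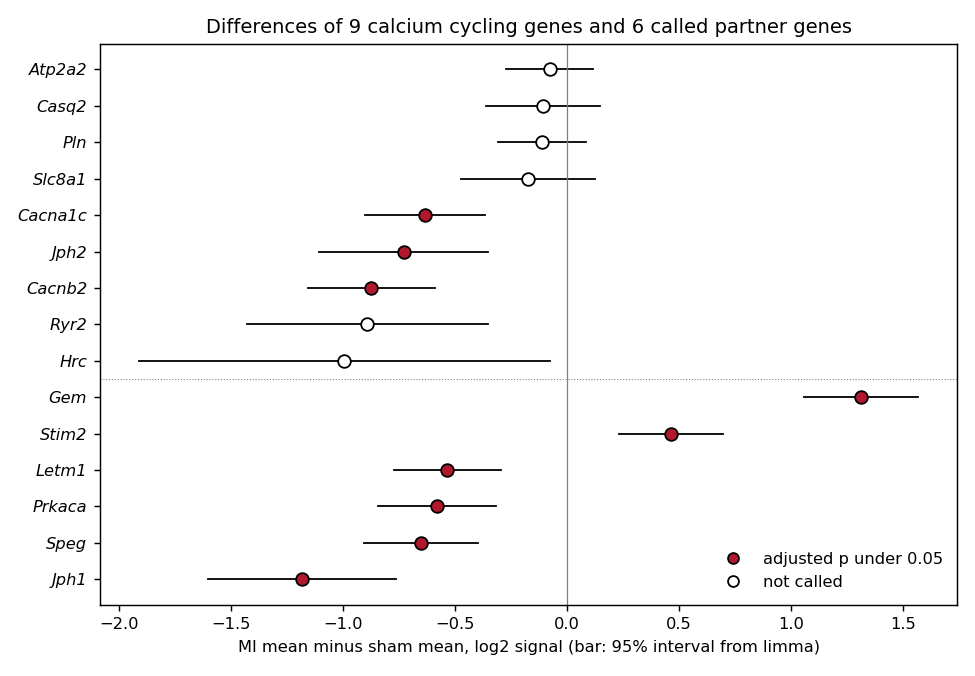
Difference between the MI mean and the sham mean in log2 signal, with the 95% interval from limma, for 9 of the 10 genes (above the dotted line, Sln left out for its wide interval) and the 6 called genes of the other calcium handling lists (below it). Filled points passed an adjusted p of 0.05, with Gem (1.31) and Stim2 (0.47) right of 0 and Jph1 (-1.18) farthest left.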

How the data were processed

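Total RNA of 3 MI and 3 sham samples was measured on Affymetrix mouse transcriptome arrays. The deposited table holds log2 signals that the authors made in Expression Console by RMA with SKETCH quantile normalization, used here as given. After 6732 control probe sets were left out, symbols came from the platform annotation, updated through RefSeq. Probe sets with a mean of at least 4.36, the 50th percentile of 65956, were tested (32979). MI and sham were compared with limma 3.58.1 in R 4.3.3 (lmFit, eBayes, two-sided), and the Benjamini-Hochberg method was applied over all probe sets tested. The fit was tested on simulated data. Pairs of genes were compared by exact permutation. Every one of the 10 genes was named, and from each other list up to 2 genes called each way by size of difference, or the 2 highest in signal where none was called. The members and lists were chosen with earlier results of these data known. The alternatives concerned the filter, the test, array weights, scaling, the replicate number, single arrays and the mean over the probe sets of a gene. The number of arrays limits the precision. No coordinates are given for genes, since no source used here names the build of the array annotation. Figures and tables were made with Python 3.11.15.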

Additional observations from a re-analysis of the deposited data

How the results depend on the processing

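All 10 genes were recomputed under 17 alternatives, or 16 for Sln, which a filter at the 75th percentile (6.30) removed. Of the 169 values, 164 kept their direction. The 5 that turned were those of Atp2a2 (0.14), Casq2 (0.11), Pln (0.10) and Slc8a1 (0.0387) with each array centred on the heart muscle cell markers, and that of Sln (0.21) with sham 2 and sham 3 both left out; none of the 5 had been called. The 3 of the 10 genes called lower became 0 with the t-test of the methods, 6 with array weights, 1 with heart muscle cell marker centring, 0 with the replicate block, 0 with sham 2 and sham 3 left out, and 0 to 5 with 1 array left out. The number called higher was 0 throughout. With array weights the calls over all 32979 probe sets also increased, to 5595 lower and 5165 higher, which is the background of each count given with that setting. Without MI 3, which gave the highest counts with 1 array left out, they were 2430 lower and 2257 higher. The 4 partner genes called lower became 0 with the t-test, 20 with array weights, 9 after quantile normalization, 2 with heart muscle cell marker centring, 0 with the replicate block, 0 without sham 2 and sham 3, and 0 to 9 with 1 array left out. The 2 called higher became 1 with no filter, with the stricter filter, with the t-test, with median centring and after quantile normalization. They became 7 with array weights, 5 with heart muscle cell marker centring, 0 with the replicate block, 0 without sham 2 and sham 3, and 0 to 4 with 1 array left out. Fewer arrays or degrees of freedom enter the fits with a block or with arrays left out, and for the other settings the cause was not tested. Where both were left out, the lone sham array is assumed to vary like the MI arrays.

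Across all probe sets limma called 0 with the replicate block (7078 at an unadjusted p under 0.05), and 0 without MI 1, sham 2 or sham 3 (6013, 6090 and 6340). No label pairs the samples by their shared replicate numbers. Deviations from the group means correlated at -0.29, 0.35 and -0.37 for numbers 1, 2 and 3. Of the 3 MI arrays, 0 correlated best with the sham array of its own number, but MI 2 came near (0.35 with sham 2, 0.37 with sham 3). With 3 arrays per group these correlations cannot exclude a pairing. With 1 array left out, Casq2 minus Ryr2 differed by 0.62 to 1.06 between MI and sham. The depth of the signal limits Atp2a2 and Pln, at the top of the scale, and Sln, within the background range in 4 of 6 arrays.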
